A study of Homo sapiens with 16 samples.

Results

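The step from 2 h to 4 h of dTAG47 was taken from the experiment labelled 6086, an ATAC-seq time course in Rh30 cells, a human alveolar rhabdomyosarcoma line whose PAX3-FOXO1 fusion carried an FKBP tag. Its members are 4 of the 16 libraries of the series, chosen by treatment and time in the names of the count columns: 2 libraries of cells given 500 nM dTAG47 for 4 h and 2 of cells given 500 nM dTAG47 for 2 h. The same experiment held 2 libraries after 24 h of 500 nM dTAG47 and 2 of DMSO, the vehicle, for which the labels give no duration. A separate experiment, 6211, held 2 libraries each of 0.5, 1 and 2 h of 500 nM dTAG47 and of its own DMSO. Every group came from the tagged cells, so an untagged control does not stand beside dTAG47, and the labels do not say how many clones or cultures the libraries came from. P-values therefore speak only of library-to-library spread, part of which may be technical.

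PAX3-FOXO1 joins the DNA-binding part of PAX3, a regulator of muscle precursors, to the activating part of FOXO1, and it is the driver of fusion-positive rhabdomyosarcoma. It is known to sit mostly at enhancers, where it keeps chromatin open together with myogenic factors such as MYOD1 and MYOG. dTAG47 links an FKBP-tagged protein to a ubiquitin ligase, so that the proteasome removes it within hours. ATAC-seq reads out open chromatin through the cuts of a transposase, and a fall in reads at a region means that fewer of its DNA copies were cut. Comparing 4 h with 2 h directly asks which regions were still losing or gaining openness after the first 2 h of degrader, with the 2 h libraries as the starting level.

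Reads had been counted by the authors over 56949 regions, of which 56945 were tested. The 4 libraries held between 22983080 and 25073513 reads in regions, a narrow range, and the 8 libraries of the experiment between 18038062 and 31308682. Across regions the Spearman correlation of the replicates was 0.990 at 4 h and 0.991 at 2 h, against 0.987 in DMSO. The chi-square of their counts per degree of freedom was 1.40 at 4 h and 1.34 at 2 h, against 1.96 in DMSO, so the DMSO pair differed the most among the 4 groups. Levels are given in CPM, the read count scaled to the library's total of reads in regions with its TMM factor. All 8 libraries entered 1 edgeR quasi-likelihood fit, which gave the log2 changes, their standard errors (SE) and p-values adjusted by Benjamini-Hochberg, and a region was called at an adjusted p under 0.05. No gene annotation or genome on hg19 was used here, so regions are named by their hg19 position, no sequence is shown, and the markers of the cell line could not be checked.

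Between 2 h and 4 h, 44 regions lost accessibility and 2 gained it. The losses were 0.0773% of the regions tested and the gains 0.00351%. The losses were modest in size, with a median of 25.5% fewer reads at 4 h than at 2 h (15.8% to 48.1%) and log2 changes from -0.95 to -0.25, so no region had lost 2-fold. At least 1.5-fold was lost at 9 of the 44 and gained at 1 of the 2. Both 4 h libraries lay below both 2 h libraries at all 44 losses, and above both at the 2 gains. Over all regions, 19.6% had both 4 h libraries below both 2 h libraries and 19.8% had both above.

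The count differed widely between settings. With the 4 libraries of 2 h and 4 h alone in the fit, 193 regions fell and 41 rose, among them all 46 of the calls above. DESeq2 called 12 lower, all among the 44, and 0 higher, with 1412 regions at an unadjusted p under 0.05. Another 18 of the 44 had an adjusted p in DESeq2 and did not pass. It gave no adjusted p for 34227 regions, with the rest of the 44 losses and each of the gains among them. Leaving out 2 h library A left 4 lower regions, and leaving out 2 h library B, 4 h library A or 4 h library B left 1 each, with 0 higher in every case. Each of those fits compares a single library with a pair, and the single library is assumed to vary like the other groups. None of the 46 regions changed direction under any of the 15 alternatives.

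**Figure D1:**
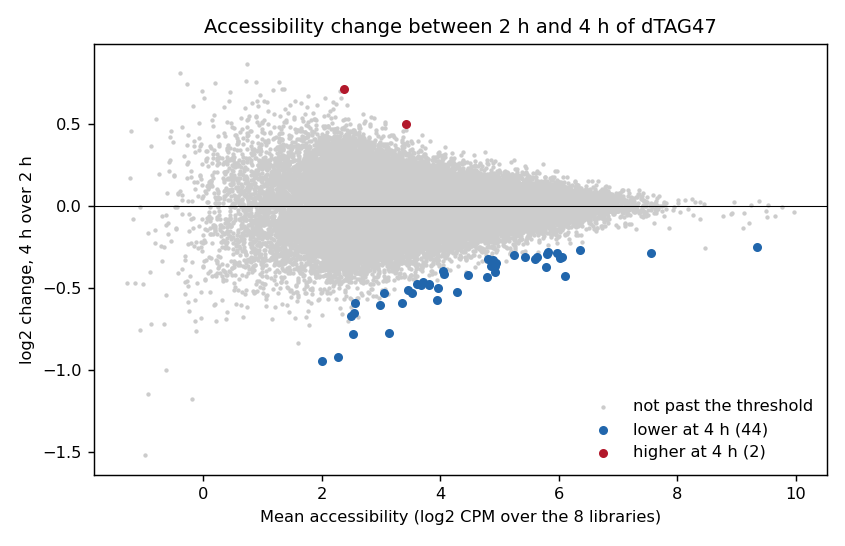
Each point is 1 of the 56945 regions, with its mean level in log2 CPM over 8 libraries on the x axis and its log2 change of 4 h over 2 h on the y axis. The 44 lower regions (blue) lie at log2 changes from -0.95 to -0.25, the 2 higher ones (red) at 0.50 and 0.71, and uncalled regions (grey) spread more widely where levels are low.

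**Figure D2:**
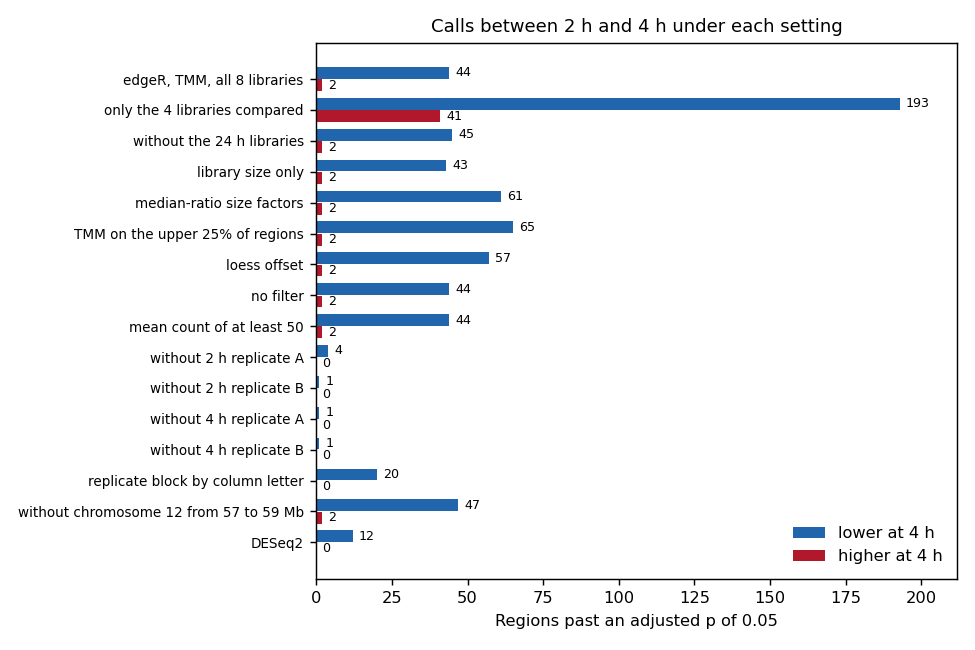
Bars give the number of regions past an adjusted p of 0.05 at 4 h against 2 h, lower in blue and higher in red, under each setting. Counts range from 193 lower and 41 higher with only the 4 libraries compared to 1 lower and 0 higher when most single libraries are left out.

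Smaller shifts were more frequent than the calls. An unadjusted p under 0.05 was reached by 5020 regions, 2835 of them lower and 2185 higher at 4 h. The median log2 change over all regions was 0.0028, the middle 50% lay between -0.077 and 0.077, and the outer 5% lay beyond -0.29 and 0.28. The median SE was 0.10. For 94.8% of regions the 95% interval of the change stayed within 1.5-fold in either direction. In the same fit the comparison of 2 h with DMSO called 4.25% of regions lower and 0.978% higher, that of 4 h with DMSO 5.44% lower and 1.75% higher, and that of 24 h with 4 h called 13.9% lower and 8.73% higher. These comparisons share libraries with the step and span different lengths of time.

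The region with the smallest p-value was chr10:103529965-103531230, named here after its values were seen. It had 53.3 and 53.2 CPM in the 4 h libraries A and B, against 71.7 and 71.4 CPM in the 2 h libraries (53.2 ± 0.0794 and 71.6 ± 0.259 CPM, SD, n = 2 each). Replicates nearly coincided and the groups stood well apart (log2 change -0.43, SE 0.05, adjusted p = 6.0e-05). The 24 h libraries held 44.6 and 46.0 CPM, against 108 and 109 CPM in DMSO. Of the 44 losses this region alone passed without any single library in turn (adjusted p = 0.0156 to 0.0314), and DESeq2 called it too. Next by p-value came chr1:3285763-3286308, with 15.7 and 15.0 CPM at 4 h against 22.0 and 22.3 CPM at 2 h (log2 change -0.53, SE 0.08, adjusted p = 0.0042). It was called by DESeq2 as well (adjusted p = 0.0107) but missed the threshold without any 1 of the 4 libraries (adjusted p = 0.0674 to 0.262).

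The largest losses were read by a rule: the 12 lowest log2 changes among called regions whose groups were separate and whose mean count reached 30. In experiment 6211, which shares no library with the step, 7 of these 12 matched a region that had fallen by 2 h, where 5.05% of all matched regions had. Among the 12, chr16:46403621-46403805 and chr21:33509557-33509974 had no single partner there. Deepest among the 7 was chr5:170008229-170008611, with 2.00 and 2.16 CPM at 4 h against 3.57 and 4.35 CPM at 2 h (2.08 ± 0.115 and 3.96 ± 0.551 CPM, SD, n = 2 each). The log2 change was -0.93 (SE 0.18, adjusted p = 0.0322) in a region that held 15.3 and 12.9 CPM in DMSO, so most of its reads were already gone at 2 h and the remainder still shrank. At 24 h it held 0.954 and 0.824 CPM. On chromosome 20, chr20:40555841-40556253 had 3.08 and 2.84 CPM at 4 h against 5.77 and 4.39 CPM at 2 h (log2 change -0.78, SE 0.16, adjusted p = 0.0377), with 14.0 and 15.1 CPM in DMSO. Its 2 h libraries lay further apart than its 4 h libraries. At chr6:44628171-44628686 the level was 7.81 and 9.27 CPM at 4 h against 12.7 and 12.8 CPM at 2 h (log2 change -0.58, SE 0.11, adjusted p = 0.0182), far below the 42.5 and 38.4 CPM of DMSO.

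The other 4 of these 7 had kept a larger share of their DMSO level at 2 h. At chr17:14367927-14368386 accessibility was 8.29 and 6.43 CPM at 4 h and 10.6 and 11.5 CPM at 2 h (log2 change -0.59, SE 0.11, adjusted p = 0.0233), with 18.1 and 17.6 CPM in DMSO. Its replicates at 4 h differed by more than those at 2 h. A second region of that chromosome, chr17:71970057-71970575, held 9.54 and 9.75 CPM at 4 h and 13.8 and 14.1 CPM at 2 h (log2 change -0.53, SE 0.09, adjusted p = 0.0129), and by 24 h it was down to 4.87 and 4.72 CPM, against 19.7 and 19.0 CPM in DMSO. On chromosome 2, chr2:16806444-16806686 had 4.95 and 4.36 CPM at 4 h and 7.55 and 7.05 CPM at 2 h (log2 change -0.65, SE 0.13, adjusted p = 0.0377). Its DMSO libraries held 8.85 and 10.4 CPM. The fourth, chr12:101412406-101412656, had 5.86 and 6.71 CPM at 4 h and 9.38 and 9.83 CPM at 2 h (log2 change -0.61, SE 0.11, adjusted p = 0.0199), close to the 10.6 and 11.7 CPM of DMSO at the earlier time.

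Of the remaining 5 among the 12, 3 without a call in 6211 are given here. The region chr21:33509557-33509974 had no single partner there and held 4.42 and 3.92 CPM at 4 h, against 6.47 and 6.80 CPM at 2 h (log2 change -0.67, SE 0.14, adjusted p = 0.0357). It went on to 1.05 and 1.43 CPM at 24 h, against 12.1 and 11.5 CPM in DMSO. At chr17:39296210-39296497 the 4 h libraries had 4.99 and 5.36 CPM, against 7.76 and 7.89 CPM at 2 h (log2 change -0.60, SE 0.12, adjusted p = 0.0377). The DMSO libraries, with 7.45 and 7.35 CPM, were at the level of 2 h, and the partner in 6211 had a log2 change of 0.34 at 2 h (adjusted p = 0.226). At chr10:103985346-103985680, 454 kb from the region with the smallest p-value, the level was 6.55 and 6.75 CPM at 4 h against 9.71 and 9.58 CPM at 2 h (log2 change -0.53, SE 0.11, adjusted p = 0.0427). The last 2 of the 12 lay beside wide stretches without regions and are described with their like below. Of these, chr16:46403621-46403805 also had no single partner in 6211.

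All 12 were called with only the 4 libraries in the fit. Leaving out a single library ended each of these calls, with adjusted p-values from 0.102 to 0.565, except that chr10:42385111-42385361 still passed without 2 h library A (adjusted p = 0.0448). DESeq2 gave an adjusted p for 1 of the 12, chr6:44628171-44628686 (0.0486), and set the others aside by its filter on low means.

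**Figure D3:**
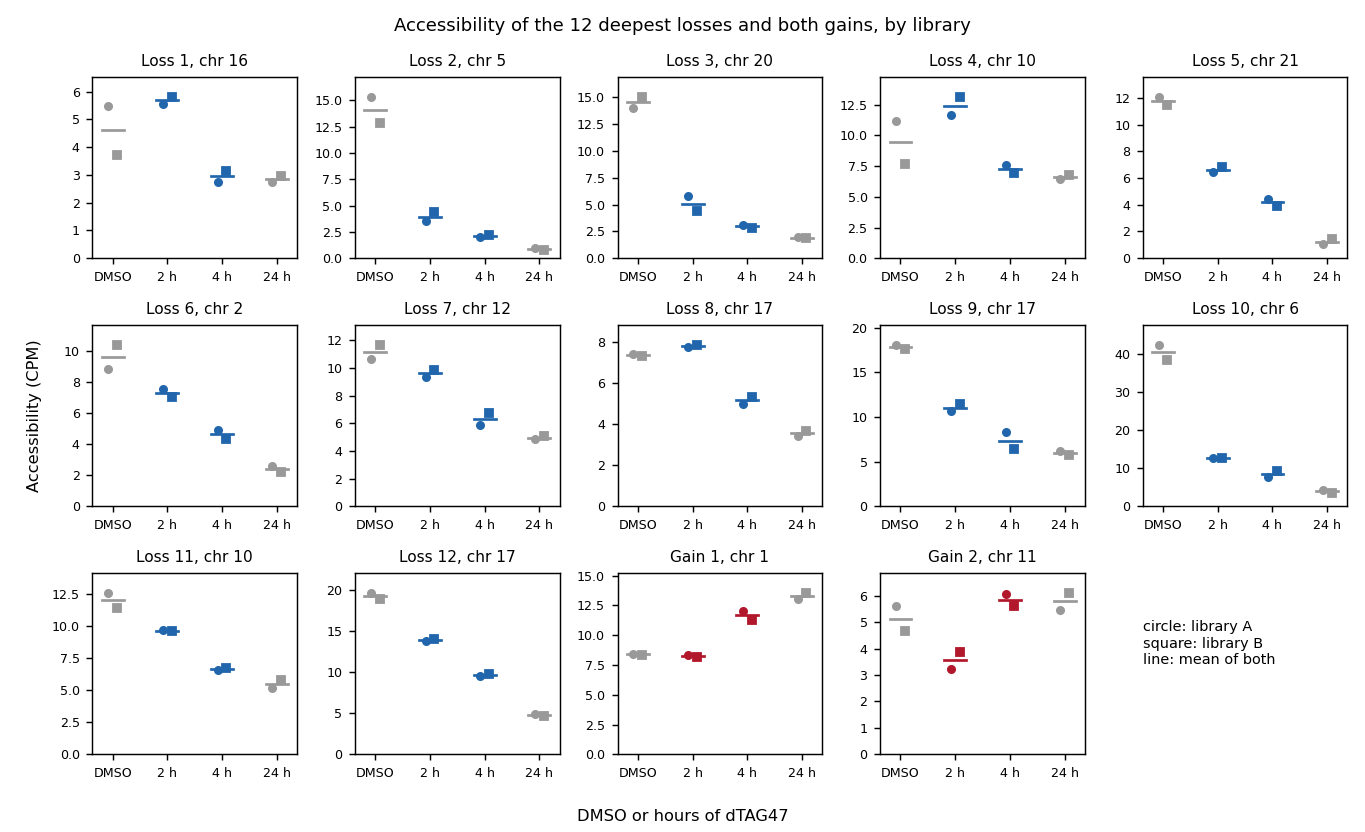
Each panel shows the level in CPM of 1 region in DMSO and after 2, 4 and 24 h of dTAG47, for the 12 losses of the rule in order of log2 change and for the 2 gains. Circles are library A, squares library B and lines the mean of both. Blue or red 4 h points never reach the 2 h points of the same panel.

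The 2 gains started from different levels. At chr1:193304921-193305419 the 4 h libraries held 12.1 and 11.3 CPM, against 8.30 and 8.19 CPM at 2 h (11.7 ± 0.557 and 8.24 ± 0.0779 CPM, SD, n = 2 each). Its log2 change was 0.50 (SE 0.10, adjusted p = 0.0355). The 24 h libraries held 13.1 and 13.6 CPM, and the DMSO libraries 8.46 and 8.37 CPM, like those of 2 h. At chr11:95071573-95071715, a region of 143 bp, the level was 6.07 and 5.60 CPM at 4 h against 3.24 and 3.88 CPM at 2 h (log2 change 0.71, SE 0.15, adjusted p = 0.0394). Its 4 h level overlapped that of DMSO, at 5.60 and 4.65 CPM, while both 2 h libraries lay below DMSO. Neither gain was past the threshold without any 1 of the 4 libraries (adjusted p = 0.260 to 0.482), and neither had a single partner in 6211.

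The 4 next gains by p-value did not pass. They were chrX:99902036-99902612 (log2 change 0.33, adjusted p = 0.0525), chr3:3640759-3641143 (0.51, adjusted p = 0.0604), chr3:9905705-9906654 (0.25, adjusted p = 0.0628) and chr8:52874799-52875015 (0.50, adjusted p = 0.0628). Levels at the first of these were 31.7 and 29.4 CPM at 4 h against 23.8 and 24.8 CPM at 2 h. All 4 passed with only the 4 libraries in the fit, and none passed in any other alternative that gave an adjusted p.

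Libraries outside the step showed where the 44 losses stood before and after it. At 24 h, set against DMSO, 43 of the 44 were lower and 0 higher, where 18.6% of all regions were lower. Their median log2 change of 24 h against DMSO was -1.15 (-3.97 to -0.11), beside -0.0031 over all regions. The medians of the 2 libraries were -1.19 and -1.11. The exception, named after its values were seen, was chr15:42232564-42233040, with 25.2 and 26.4 CPM at 4 h against 33.2 and 31.4 CPM at 2 h (log2 change -0.33, adjusted p = 0.0447). It had 26.0 and 25.6 CPM at 24 h, against 28.3 and 27.4 CPM in DMSO, so its level at 2 h was the high point of the series. Of the 2 gains, the one on chromosome 1 was higher at 24 h than in DMSO (log2 change 0.66, adjusted p = 1.3e-06), where 13.6% of all regions were higher, and the one on chromosome 11 was not called (0.20, adjusted p = 0.293).

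In experiment 6211, 27 of the 44 losses had a single partner by 50% reciprocal overlap. Of these partners 15 (55.6%) were lower at 2 h than DMSO there, 2 were higher and 10 were not called, where 5.05% of all 29639 matched regions were lower and 1.92% higher. Over all 40844 regions of 6211, matched or not, 4.92% were lower and 1.97% higher at that time. Earlier, 10 of the 27 partners were lower at 1 h and 1 at 0.5 h, where 2.47% and 0.00735% of all regions of 6211 were lower. The log2 changes of the 27 had a median of -0.19 after 0.5 h, -0.30 after 1 h and -0.48 after 2 h, beside 0.0030, 0.011 and 0.017 over all matched regions. Thus losses of the step included regions already falling within 2 h in the other experiment and regions for which no fall was called by then.

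The 15 losses with a fallen partner had log2 changes between 4 h and 2 h of -0.93 to -0.31. In 6211 the partners' median log2 change was -0.24 after 0.5 h, -0.40 after 1 h and -0.81 after 2 h (-1.97 to -0.40 at the last of these), and the 24 h libraries of 6086 lay at a median of -1.99 against DMSO. A member of this group that did not go on falling, named after its values were seen, was chr22:27843132-27843749. It had 20.4 ± 0.562 CPM at 4 h against 26.3 ± 0.718 CPM at 2 h (SD, n = 2 each; log2 change -0.37, SE 0.07, adjusted p = 0.0302). The 24 h libraries, at 23.5 and 24.6 CPM, stood between those of 4 h and 2 h and well under the 47.3 and 47.2 CPM of DMSO.

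The 10 losses with an uncalled partner had log2 changes of -0.60 to -0.30 between 4 h and 2 h, and their partners a median log2 change of 0.071 at 2 h in 6211 (-0.28 to 0.69). Of the 10, 9 were lower at 24 h than in DMSO, with a median log2 change of -0.91 over the 10. Among these, chr9:112578702-112579242 held 29.6 and 30.2 CPM at 4 h against 36.6 and 38.5 CPM at 2 h (log2 change -0.33, SE 0.07, adjusted p = 0.0355). The level was 17.3 and 19.0 CPM at 24 h, against 34.5 and 34.9 CPM in DMSO, which lay under the 2 h libraries. Likewise chr17:77080478-77081091 had 36.4 and 38.1 CPM at 4 h against 46.7 and 45.0 CPM at 2 h (log2 change -0.30, SE 0.06, adjusted p = 0.0348), with 46.4 and 45.7 CPM in DMSO. Their 6211 partners had log2 changes at 2 h of 0.013 (adjusted p = 0.953) and 0.070 (adjusted p = 0.710), so no fall had been called at these regions by 2 h. Both were named after their values were seen, and neither passed in DESeq2 (adjusted p = 0.213 and 0.189) or without any 1 of the 4 libraries (adjusted p = 0.220 to 0.445).

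The remaining 17 losses had no single partner in 6211, and all 17 were lower at 24 h than in DMSO, as were 18.6% of all regions. Most of the 17 were already called lower at 2 h than DMSO in the experiment of the step. A wide one of the rest, chr3:126630135-126630945, followed the later course instead. It had 48.8 and 48.0 CPM at 4 h against 62.2 and 59.2 CPM at 2 h (log2 change -0.33, SE 0.06, adjusted p = 0.0098), and 25.2 and 26.0 CPM at 24 h against 63.1 and 60.2 CPM in DMSO. Here the 2 h libraries overlapped DMSO and both 4 h libraries lay below both groups. DESeq2 also called it (adjusted p = 0.0333), while it missed the threshold without any 1 library (adjusted p = 0.173 to 0.321).

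A set of 5 losses lay within 1 Mb of the widest stretch without regions on their chromosome, which on chromosomes 1, 7, 10 and 16 spans the centromere. Sequence beside centromeres is rich in satellite repeats, to which reads cannot be assigned with certainty, so these 5 regions are uncertain. At chr16:46403621-46403805 the level was 2.73 and 3.16 CPM at 4 h against 5.56 and 5.82 CPM at 2 h, the lowest log2 change of all called regions (-0.95, SE 0.16, adjusted p = 0.0098). Its DMSO libraries disagreed, at 5.49 and 3.72 CPM. At chr10:42385111-42385361 the values were 7.59 and 6.95 CPM at 4 h against 11.7 and 13.2 CPM at 2 h (log2 change -0.77, SE 0.12, adjusted p = 0.0065), with 11.2 and 7.67 CPM in DMSO. The partner of this region in 6211 was higher than DMSO at 2 h (log2 change 1.02, adjusted p = 0.0189). A second region with a higher partner there, chr18:108094-108547 (0.89, adjusted p = 0.0016), had 25.1 and 26.3 CPM at 4 h against 34.1 and 35.5 CPM at 2 h. Its DMSO libraries held 30.5 and 26.1 CPM. In the experiment of the step its 2 h level was called above DMSO (log2 change 0.31, adjusted p = 0.0081). The only other losses called so were chr17:3887294-3887687 (0.36, adjusted p = 0.0126), chr1:121484037-121485490 (0.16, adjusted p = 0.0245) and chr10:42385111-42385361 (0.44, adjusted p = 0.0228). At none of these regions was 4 h called different from DMSO (adjusted p = 0.138 to 0.595). Their calls in the step used the same 2 h libraries.

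The other 3 of the 5 were chr7:61970273-61970630, its neighbour chr7:61968706-61969710 and chr1:121484037-121485490, with log2 changes of -0.48, -0.29 and -0.25. DMSO library A was above DMSO library B at all 5, but also at other losses, and the share over all regions is not given here. The widest stretches without regions across chromosomes, not all of them at a centromere, had 716 regions within 1 Mb. Of these 716, 0.698% were called lower, against 0.0773% of all regions, while their median log2 change was 0.021. Without these 5 the losses number 39.

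Read the other way round, regions called at 24 h against DMSO, in libraries outside the step, had small median changes of the same sign between 2 h and 4 h, although few of them passed the threshold. The 10611 regions lower at 24 h than in DMSO had a median log2 change of -0.082 from 2 h to 4 h, and 75.9% of them were below 0, against 49.1% of all regions. The medians of the 4 h libraries A and B were -0.068 and -0.095, while those of the 2 h libraries stood 0.0093 from their own mean. Only 43 (0.405%) of them passed the threshold, and 1882 were lower and 88 higher at an unadjusted p under 0.05. The 7742 regions higher at 24 h had a median of 0.059, with library medians of 0.071 and 0.050, and 29.0% were below 0. Of these 1 passed, and 780 were higher and 76 lower at an unadjusted p under 0.05. The regions not called at 24 h had a median of 0.011.

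The size of this shift followed the change at 24 h. Regions with a log2 change under -2 at 24 h against DMSO (91 regions) had a median of -0.37 between 2 h and 4 h, and 100% of them were below 0. The median was -0.28 for 200 regions between -2 and -1.5, -0.20 for 818 regions between -1.5 and -1 and -0.11 for 3931 regions between -1 and -0.5. On the side of gains it was 0.084 for 2456 regions between 0.5 and 1 and 0.14 for 248 regions above 1. Across all 56945 regions the log2 change of 4 h against 2 h and that of 24 h against DMSO were correlated with r = 0.40 (Pearson) and rho = 0.34 (Spearman). The 2 changes share no library, but they share the fit, its scaling and the depth of each region, and regions are not independent replicates.

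**Figure D4:**
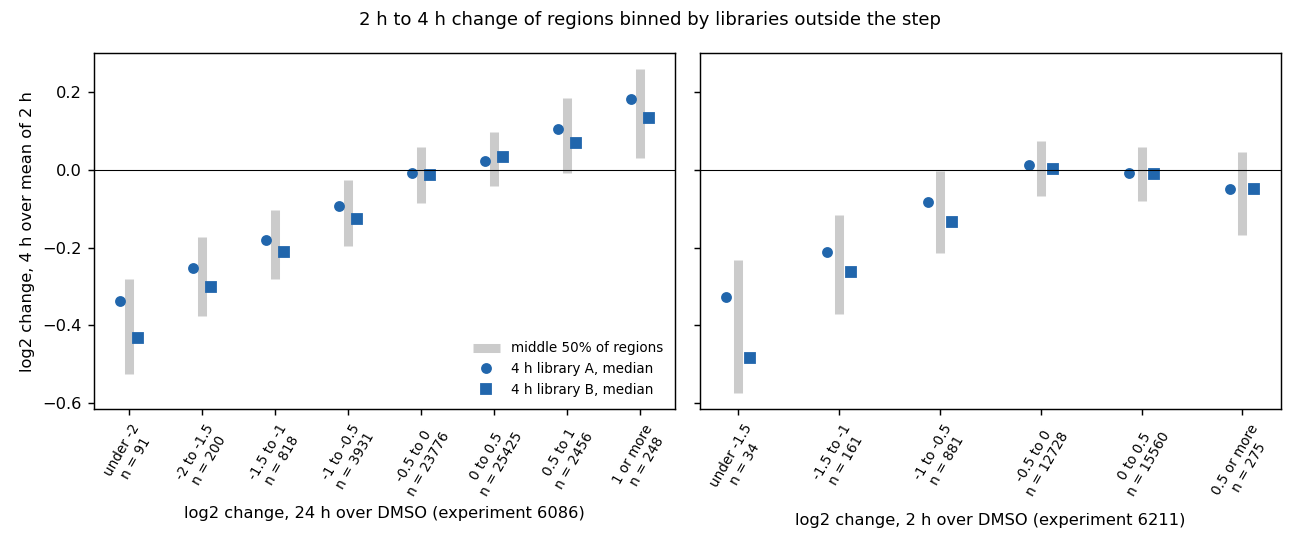
Regions are binned by their log2 change of 24 h over DMSO in 6086 (left) or of 2 h over DMSO in 6211 (right), and the y axis gives the log2 change of 4 h over the mean of the 2 h libraries. Circles and squares are the medians of 4 h libraries A and B, and bars span the middle 50% of regions. Medians of libraries A and B reach -0.34 and -0.43 for the deepest 24 h losses and -0.33 and -0.48 for the deepest 6211 losses. They are above 0 where accessibility was gained at 24 h but not where it was gained at 2 h in 6211.

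Of the regions chosen in 6211, the losses but not the gains had a median of the same sign in the step. The 569 matched regions higher at 2 h there had a median log2 change of -0.039 between 2 h and 4 h, with 59.8% below 0 and 0 called higher. The 1496 matched regions lower at 2 h there had a median log2 change of -0.11 between 2 h and 4 h in 6086, beside -0.0071 for all 29639 matched regions. Among them 75.2% were below 0, against 52.6% of all matched regions, and 15 (1.00%) were called lower, against 0.0911%. The library medians were -0.075 in 4 h library A and -0.13 in 4 h library B, a mean of -0.10 ± 0.04 (SD, n = 2), against -0.020 and 0.020 in the 2 h libraries around their mean. Regions with a log2 change under -1.5 at 2 h in 6211 (34 regions) had a median of -0.43, those between -1.5 and -1 (161 regions) -0.24 and those between -1 and -0.5 (881 regions) -0.11. Where accessibility was still falling between 1 h and 2 h in 6211, at 74 matched regions (0.316% of all regions of 6211 fell then), the median was -0.25 and 89.2% were below 0.

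Of the 6 deepest losses at 2 h in 6211, 5 had a single partner in 6086, and all 5 were lower at 4 h than at 2 h in both libraries, 1 of them past the threshold. Over all regions 19.6% had both 4 h libraries below both 2 h libraries, and 0.0773% were called lower. That 1 was chr5:170008229-170008611, described above. On chromosome 12, chr12:66508913-66509375 had 2.95 and 3.08 CPM at 4 h against 5.35 and 4.47 CPM at 2 h (log2 change -0.70, SE 0.15, adjusted p = 0.0574), just outside the threshold. It passed with only the 4 libraries in the fit (adjusted p = 0.0180), with median-ratio factors (0.0475), with TMM from the upper 25% of regions (0.0443) and with a loess offset (0.0433), and in no other alternative that gave an adjusted p. The neighbouring chr12:66634884-66635285 held 2.99 and 2.36 CPM at 4 h against 3.57 and 3.84 CPM at 2 h (-0.47, SE 0.18, adjusted p = 0.404). The third of that chromosome, chr12:66997879-66998236, had 3.25 and 2.88 CPM against 4.07 and 4.18 CPM at 2 h (-0.43, SE 0.16, adjusted p = 0.395). At chr1:235344341-235344631 it was 2.21 and 1.48 CPM at 4 h against 2.95 and 2.57 CPM at 2 h (-0.59, SE 0.21, adjusted p = 0.360). These 5 regions had SE values of 0.15 to 0.21, beside a median of 0.10 over all regions.

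The 44 losses were wider and better covered than regions at large. Their median width was 580 bp (185 to 3256 bp), beside 320 bp over all regions tested, and 10 of them (22.7%) were at least 1000 bp wide, beside 5.88%. The mean count over the 4 libraries had a median of 485 reads, beside 247, and the SE a median of 0.081, beside 0.10. Small changes pass a threshold more easily where counts are high, and the part of depth in this difference was not tested. The widest, chr12:58158169-58161424, had 77.7 and 77.2 CPM at 4 h against 95.6 and 91.5 CPM at 2 h (log2 change -0.27, SE 0.05, adjusted p = 0.0347), with 91.5 and 78.8 CPM in DMSO. The DMSO libraries differed from each other by more than those of 4 h or 2 h.

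Losses were spread over 17 chromosomes. Chromosome 17 held 9 of them (20.5%) with 5.64% of the regions, and chromosome 1 held 7 (15.9%) with 10.9%. Chromosome medians of the log2 change lay between -0.015 and 0.025, that of chromosome 17 at -0.014. Called regions rarely neighboured each other: 2 pairs of consecutive losses were within 50 kb and 4 within 500 kb. The second closest pair, chr17:39296210-39296497 and chr17:39340631-39341133, was 44.1 kb apart, and neither partner had a call in 6211. Uncalled regions within 10 kb of a loss numbered 76, around 29 of the 44, and had a median log2 change of -0.039 with 64.5% below 0, against 49.1% of all regions.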

How the data were processed

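ATAC-seq reads were counted per consensus region by the authors, and the deposited tables hold raw, unscaled read counts. Builds hg19 and dm3 and the tools deepTools, DESeq2, DiffBind, Genrich 0.6.1, Bowtie2 and Trimmomatic 0.32 are listed in the submitters' processing notes. Coordinates are taken as hg19. Not given in the sources used here is how duplicates, mitochondrial reads and the transposase shift were handled. Deposited comparison tables were not used. No per-library column lay outside the groups.

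Column names gave treatment and time. Letters A and B name the libraries, since no label ties them to a replicate number. The test on counts was that of edgeR 4.0.16, run in R 4.3.3 (filterByExpr, TMM, quasi-likelihood fit, group means, 4 residual degrees of freedom in 6086). SE is the log2 change divided by the square root of F, and 95% intervals use the t distribution with the moderated degrees of freedom. TMM assumes that most regions do not change, so a uniform change would not be seen. The test was checked on simulated counts. Tables were matched with bedtools 2.31.1 (50% reciprocal overlap, 1 partner each way). Alternatives used DESeq2 1.42.0 and limma 3.58.1, and summaries pandas 2.3.3.

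Named regions were the 12 lowest and 12 highest called log2 changes whose mean count reached 30 and whose groups were separate (log-CPM, prior count 2), gains being filled to 6 by p-value, and the partners of the 6 deepest 2 h losses of 6211. Others were chosen after their values were seen, whether or not this is said beside them. The comparison, rules and lists were chosen with earlier results of these data known. Gene lists, cell type markers and motifs of the design were not used, since no hg19 annotation or genome was.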

Additional observations from a re-analysis of the deposited data

How the results depend on the processing

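The 44 lower regions became 193 with only the 4 compared libraries in the fit, 12 with DESeq2 and 20 with the column letter as a replicate block, and the 2 higher ones became 41, 0 and 0. At least 1.5-fold was lost at 9 and became 18, 0 and 4, and gained at 1 and became 8, 0 and 0. DESeq2 gave no adjusted p for 34227 regions. These included all 9 of those losses and the 2 higher regions, so it could not call them, and its 0 counts are not failed tests of them. Of the 44 lower regions, 18 had an adjusted p in DESeq2 and did not pass. Without each 2 h or 4 h library in turn, 1 to 4 regions were lower and 0 higher, and 0 to 2 were lower and 0 higher by at least 1.5-fold. The letters do not pair the samples by the labels, and the correlation of the A minus B differences between groups ranged from -0.14 to 0.15. Under a loess offset, TMM from the upper 25% of regions, median-ratio factors, plain library sizes, no filter, a minimum mean count of 50, no 24 h libraries and no chromosome 12 from 57 to 59 Mb, 43 to 65 were lower and 2 higher. The median change between 2 h and 4 h of regions lower at 2 h in 6211 was -0.11, and -0.15 for regions chosen there by DESeq2. For regions higher at 2 h in 6211 it was -0.039, then -0.042 with any overlap, -0.034 with 80% overlap, -0.033 with DESeq2, -0.029 without the chromosome 12 stretch (chosen after seeing the data) and -0.050 to -0.019 without single libraries. Choices that left out a library kept too few lower regions for a median over them to stand for the 44. The median change at 24 h of the lower regions was -1.15, and -1.26 (chr10:103529965-103531230 alone) to -1.13 in those choices. That of the higher ones, 0.43, was 0.46 with library size only, and DESeq2 and the leave-outs gave no region. The cause of these differences was not tested. At this depth the median SE of 0.10 limits which small changes can be called.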

Other observations

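Regions that were higher at 2 h in experiment 6211 had no rise in their median between 2 h and 4 h in 6086. Whether they had also risen by 2 h in 6086 is shown here only for the 2 called lower in the step. Both of those were called above DMSO at 2 h in 6086 (log2 changes 0.44 and 0.31). Their calls as lower in the step used the same 2 h libraries. The 569 matched regions had a median log2 change of -0.039 between 2 h and 4 h, with medians of -0.038 in both 4 h libraries, against 0.018 and -0.018 in the 2 h libraries around their mean. Of them 2 were called lower and 0 higher, and 59.8% were below 0, against 52.6% of all matched regions. Without 2 h library A the median was -0.019. The difference from the matched regions at large was not tested.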
